A study of Brassica rapa with 6 samples.

Results

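Cellulose synthase catalytic subunits (CESA) were followed in petiole and leaf of baby Chinese cabbage, a *Brassica rapa* vegetable that forms small heads. A locus was taken as a member when the deposited table gave it 1 gene name and a description that named a cellulose synthase A catalytic subunit. The rule found 12 of the 49200 loci in the table. Of these, 6 carried the number of a primary wall subunit (CESA1, CESA2, CESA3, CESA5 or CESA6) and 6 that of a secondary wall subunit (CESA4, CESA7 or CESA8). No locus described as CESA9 was among them. RNA came from 3 petiole libraries and 3 leaf libraries of an inbred line, all from untreated mature plants, with no allele or agent that set the groups apart. Whether the 3 libraries of a tissue were made from different plants is not in the labels. The p-values below therefore rest on a spread between libraries that may be only technical.

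Cellulose is spun at the plasma membrane by complexes of CESA proteins, each of which joins glucose from UDP-glucose into a glucan chain. In *Arabidopsis*, the complex of growing cells is built from CESA1, CESA3 and a member of the CESA6-like group (CESA2, CESA5, CESA6 and CESA9). The complex that thickens the walls of xylem vessels and fibres is built from CESA4, CESA7 and CESA8. A petiole is a stalk that carries the blade and its vascular bundles, while a leaf blade is rich in photosynthetic mesophyll.

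Every CESA locus with enough counts to be tested was higher in petiole than in leaf. These were 10 loci: all 6 primary wall loci and 4 of the 6 secondary wall loci. They passed edgeR's quasi-likelihood test at a Benjamini-Hochberg adjusted p under 0.05, and none was lower. Calls were common in this comparison, since 62.6% of the 31473 loci tested passed in either direction, 31.5% with a higher and 31.1% with a lower level in petiole. The median log2 fold change, petiole minus leaf, was 1.48 over the 10 loci and 0.01 over all loci tested. Each of the 10 passed the test and was at least 2-fold higher, and 17.2% of all loci tested met both conditions. At each of them the lowest petiole library lay above the highest leaf library, as at 35.9% of all loci tested, while 71.3% had no overlap in either direction. A description of the series names CESA among the proteins found in these same samples, so the direction is not independent evidence. In whole tissue, more cells of a type and more RNA per cell cannot be told apart.

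The libraries held between 120805715 and 132861243 estimated count units in petiole and between 111518411 and 121161682 in leaf. A sequenced fragment was worth about 3.78 of these units. Levels are given as CPM, counts scaled to TMM-adjusted library size, with mean ± SD over 3 libraries and log2 fold changes with their standard error (SE). Levels of different genes are compared only in FPKM, which is scaled to transcript length. Chlorophyll a-b binding proteins and Rubisco small chains, which mark mesophyll, matched the tissue labels: 25 of 26 tested loci were lower in petiole and none higher. Over all loci tested 31.1% were lower and 31.5% higher in petiole. The mesophyll loci summed to 368 to 402 CPM in petiole and 4275 to 4660.4 CPM in leaf. The 4 Rubisco small chain loci kept, 2 of them tested, summed to 0.146 to 0.232 CPM in petiole and 208 to 236 CPM in leaf. A merged locus of this family was left out, so the sum is not the level of the whole family.

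The 12 loci lay on 5 of the 10 chromosomes, in the coordinates of the deposited table, whose genome build is not given in the sources used here. Of these 12, chromosome A03 held 4, A02 held 3, A01 and A06 held 2 each, and A05 held 1. CESA1 was BraA01g005650.3C (A01, 2737282 to 2742456, plus strand) and CESA2 was BraA01g000390.3C (A01, 172307 to 177518, plus strand). CESA3 had a copy on A02, BraA02g001600.3C (807973 to 812773, minus strand), and a copy on A03, BraA03g002020.3C (910365 to 915133, minus strand). CESA5 was BraA03g004030.3C (A03, 1721994 to 1727675, plus strand) and CESA6 was BraA06g028190.3C (A06, 19594077 to 19599510, plus strand).

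Among the secondary wall subunits, each number was carried by 2 loci. CESA4 was BraA06g043400.3C (A06, 28334830 to 28339010, minus strand) and BraA02g031010.3C (A02, 21148019 to 21148957, plus strand). CESA7 was BraA03g008010.3C (A03, 3437348 to 3442396, minus strand) and BraA02g007030.3C (A02, 3310043 to 3315146, minus strand). CESA8 was BraA03g048470.3C (A03, 24586891 to 24590784, minus strand) and BraA05g015160.3C (A05, 8749337 to 8750375, minus strand). The CESA4 locus on A02 and the CESA8 locus on A05 spanned only 939 and 1039 bases, against 3894 to 5682 bases for the other 10 loci.

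The table's own annotation followed this division in part. All 12 loci carried the Gene Ontology term for cellulose synthase activity. The term for primary wall formation stood at 5 of the 6 primary wall loci, all but CESA5, and at none of the secondary wall loci. The term for secondary wall formation stood at all 6 secondary wall loci and also at both CESA3 copies. A term for defence against fungi stood at the 4 CESA4 and CESA8 loci and at no other member.

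Per length the most abundant subunits were CESA1, CESA3, CESA5 and CESA6 of the primary wall, and the CESA3 copy on A02 led in both tissues. The CESA3 copy on A02, a core subunit of the primary wall complex in *Arabidopsis*, had 796, 808 and 801 CPM in the petiole libraries and 309.6, 306 and 318 CPM in the leaf libraries. Its log2 fold change was 1.37 ± 0.035 (SE; edgeR adjusted p = 2.26e-10). The copy on A03 had 605, 609.9 and 614 CPM in petiole and 145, 146 and 154 CPM in leaf. At both copies all petiole libraries lay far above all leaf libraries, and the petiole values stayed within a narrow range. The A03 copy had the larger log2 fold change, 2.04 ± 0.037 (SE; edgeR adjusted p = 2.66e-11). In CPM this was a 4.11-fold difference, against 2.58-fold for the A02 copy.

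CESA1, the other core subunit of that complex, had 637, 631 and 627 CPM in petiole and 275, 278 and 277 CPM in leaf. Libraries of each tissue were nearly level, and the log2 fold change of 1.19 ± 0.033 (SE) was the smallest of the 10 (edgeR adjusted p = 3.95e-10). CESA6, which fills the remaining position of the complex, had 707, 721 and 712 CPM in petiole and 244, 262 and 258 CPM in leaf. The tissues did not overlap, and its log2 fold change was 1.49 ± 0.039 (SE). CESA5, a relative of CESA6, had 588, 584 and 597 CPM in petiole and 231, 241 and 260.0 CPM in leaf. Its log2 fold change was 1.27 ± 0.046 (SE), and again every petiole library lay above every leaf library. The CESA5 locus lies inside a longer assembled locus on the same strand, and how shared reads were assigned is not given in the sources used here.

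CESA2, another member of the CESA6-like group, stood apart. It had 70.0, 74.1 and 76.6 CPM in petiole and 1.70, 2.26 and 3.27 CPM in leaf. All petiole libraries were high and all leaf libraries were near the bottom of the range, where the counts stood for 45.8 to 89.1 fragments per library. The log2 fold change was 4.93 ± 0.24 (SE), a 30.6-fold difference in CPM (edgeR adjusted p = 7.57e-06). Of all loci tested, 97.4% had a lower log2 fold change than CESA2 and 81.8% a lower one than CESA1, the members with the largest and the smallest change.

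**Figure D1:**
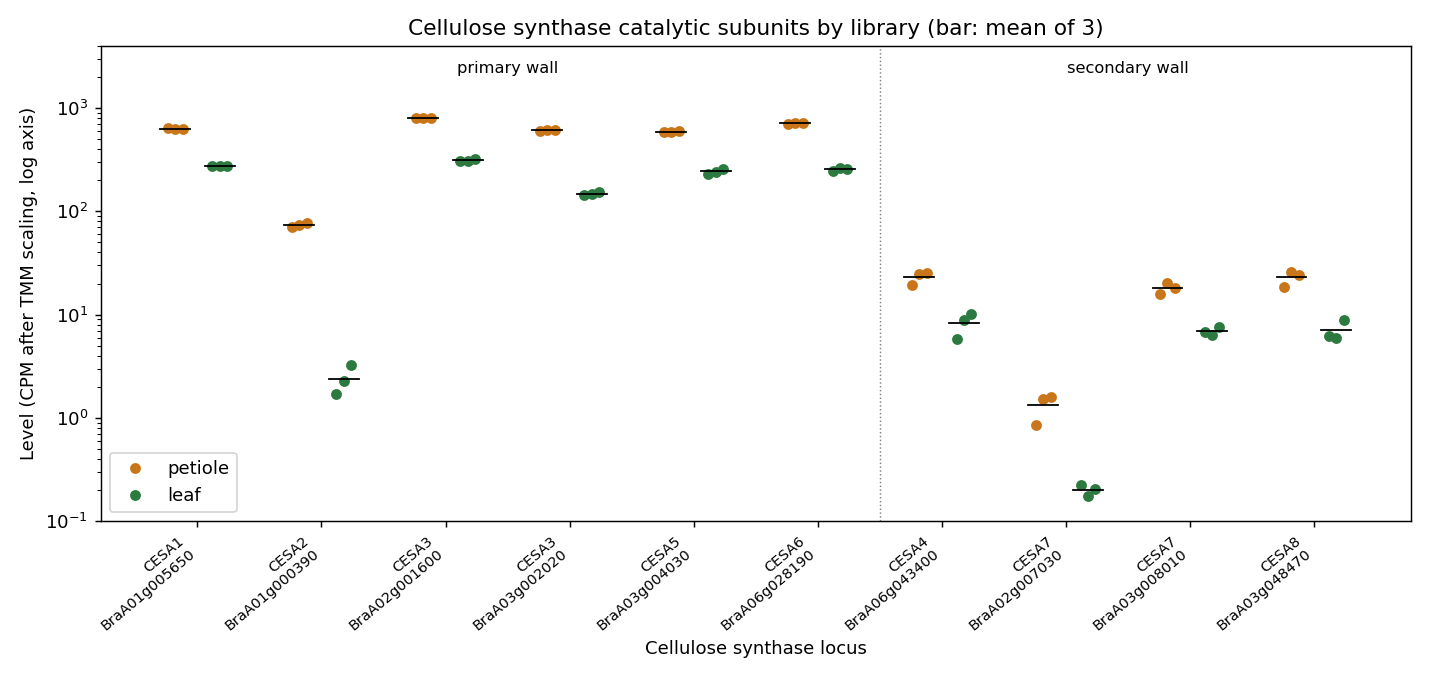
Level of each tested CESA locus in each library, in CPM after TMM scaling on a log axis, with petiole left of leaf at each locus and a bar at the mean of 3 libraries. At all 10 loci the petiole points lie above the leaf points, with the widest gap at CESA2 (73.6 CPM in petiole and 2.41 CPM in leaf on average).

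The 4 tested secondary wall loci were also higher in petiole. Per length all 4 stood below every primary wall locus in petiole, and in leaf they stood below CESA1, CESA3, CESA5 and CESA6, though not all below CESA2. CESA4 on A06 had 19.2, 24.8 and 25.2 CPM in petiole and 5.80, 8.79 and 10.2 CPM in leaf. The tissues did not overlap, although the lowest petiole library and the highest leaf library were within 2-fold of each other. The log2 fold change was 1.48 ± 0.21 (SE; edgeR adjusted p = 0.000427). CESA8 on A03, which works with CESA4 in the same complex, had 18.7, 25.9 and 24.3 CPM in petiole and 6.24, 5.97 and 8.89 CPM in leaf. Its log2 fold change was 1.71 ± 0.18 (SE; edgeR adjusted p = 3.51e-05).

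CESA7, the remaining subunit of that complex, was read mainly from its copy on A03, with 15.9, 20.2 and 18.0 CPM in petiole and 6.81, 6.35 and 7.62 CPM in leaf. The groups did not overlap, and the log2 fold change was 1.38 ± 0.12 (SE; edgeR adjusted p = 2.99e-06). This locus shares 389 bases with a locus on the other strand, and whether strand was used in counting is not given in the sources used here. A faint copy on A02 had 0.848, 1.54 and 1.59 CPM in petiole and 0.226, 0.177 and 0.204 CPM in leaf. Its leaf values rested on 5.03 to 6.08 fragments per library. The log2 fold change of this copy was 2.71 ± 0.48 (SE; edgeR adjusted p = 0.0006).

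The 2 short loci gave almost nothing. The CESA4 locus on A02 had a count in petiole library 1 only, worth 3.97 fragments, and the CESA8 locus on A05 had none in any library. With a floor of 3 fragments per library, which covers counting error only, no fold is given for either.

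Spread between libraries was smaller at CESA1, CESA3, CESA5 and CESA6 than at the fainter loci. For CESA1, CESA3, CESA5 and CESA6 the coefficient of variation was 0.738 to 1.17% in petiole and 0.469 to 6.03% in leaf. For the 4 tested secondary wall loci it was 11.9 to 31.2% in petiole and 9.28 to 27.1% in leaf. Counting error alone would give these 4 loci 3.40 to 14.2% in petiole and 6.63 to 42.4% in leaf. For CESA1, CESA3, CESA5 and CESA6 it would give 0.576 to 0.671% in petiole and 1.08 to 1.57% in leaf. CESA2, also of the primary wall, had 4.53% in petiole and 33.1% in leaf, where counting error would give 1.90 and 12.3%. Petiole library 1 was the lowest of its tissue at 8 of the 10 tested loci, all but CESA1 and CESA5. Copies of a subunit are close relatives, and how the authors' counting split reads between them is not given in the sources used here.

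Set in order of mean FPKM, the petiole series ran from CESA3 on A02 (229 ± 1.82, SD, n = 3) through CESA3 on A03 (175 ± 0.453), CESA6 (175 ± 1.86) and CESA1 (173 ± 2.18) to CESA5 (112 ± 0.921). The ranges of CESA3 on A03 and CESA6 overlapped, as did those of CESA6 and CESA1, so these neighbours had no clear order. The place of CESA5, here and in leaf, rests on the long length that its FPKM imply. CESA2 followed at 18.9 ± 0.765 FPKM. CESA8 (7.57 ± 1.23) and CESA4 (7.12 ± 1.01) overlapped, and CESA7 came after them at 4.97 ± 0.585 FPKM on A03 and 0.414 ± 0.128 FPKM on A02.

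In leaf the order was different below CESA3 on A02, which had 53.3 ± 0.893 FPKM (SD, n = 3). CESA1 came next at 45.4 ± 0.653 FPKM, then CESA6 at 37.4 ± 1.71 FPKM. CESA5 (27.7 ± 1.69) and CESA3 on A03 (25.5 ± 0.813) overlapped. CESA4 (1.53 ± 0.418), CESA8 (1.39 ± 0.314) and CESA7 on A03 (1.14 ± 0.0997) overlapped as neighbours and all stood above CESA2. CESA2, at 0.371 ± 0.122 FPKM, was thus the faintest primary wall subunit in leaf, with only CESA7 on A02 below it among the tested loci (0.0364 ± 0.0041). Among all loci of the table ordered by mean FPKM, CESA3 on A02 ranked 234 in petiole and 832 in leaf, and CESA2 ranked 5270 in petiole and 26311 in leaf.

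How large the difference was depended on the scale. Summed over all CESA loci, the level was 3485 ± 24.3 CPM in petiole and 1260 ± 35.4 CPM in leaf, a 2.77-fold difference. The same sum in deposited FPKM was 903 ± 4.98 in petiole and 194 ± 5.66 in leaf, a 4.66-fold difference. The denominator behind the deposited FPKM was estimated, with some loci taken as unspliced. By this estimate 12.3 ± 1.48% of it lay outside the table in petiole and 34.9 ± 1.93% in leaf (SD, n = 3 each). FPKM and scaled counts are therefore not interchangeable between the tissues. With limma on log2(FPKM + 1), which understates the change of low genes, the median over all loci was 0.59 and 79.9% of calls were higher in petiole, against 0.01 and 50.3% with edgeR. With limma all 9 CESA loci that passed its filter were higher in petiole, with a median of 1.97. Of all loci in that fit 82.2% passed in either direction and 65.7% were higher in petiole.

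**Figure D2:**
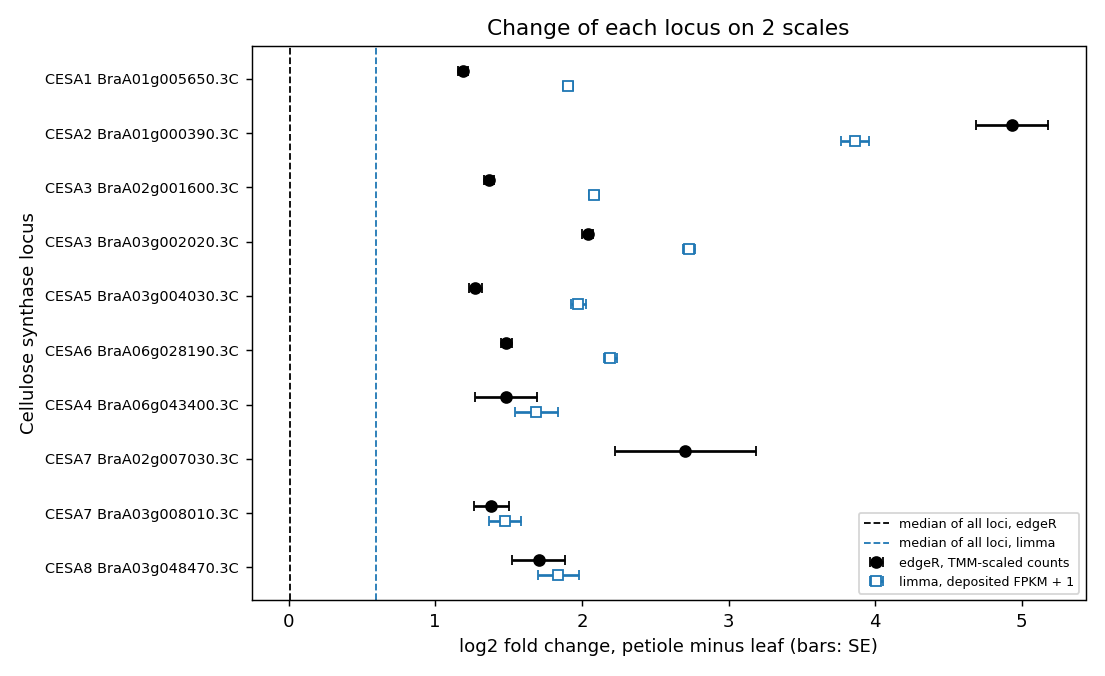
The log2 fold change, petiole minus leaf, of each tested CESA locus, from edgeR on TMM-scaled counts (filled circles) and from limma on log2(FPKM + 1) (open squares), with bars for the SE and dashed lines for the median over all loci in each fit. All points lie to the right of the line of their own fit, whose medians are 0.01 for edgeR and 0.59 for limma, and CESA2 is the farthest with edgeR (4.93).

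The summed levels of both classes of subunit were higher in petiole. The primary wall loci summed to 3402, 3428 and 3428 CPM in petiole and 1207, 1235 and 1269.7 CPM in leaf, a 2.76-fold difference. The secondary wall loci summed to 54.8, 72.5 and 69.1 CPM in petiole and 19.1, 21.3 and 26.9 CPM in leaf, a 2.92-fold difference. For both sums the tissues did not overlap, with an exact two-sided permutation p of 0.1, the smallest that 3 libraries against 3 allow. Within a library, secondary wall subunits took 1.89, 2.45 and 2.35% of all CESA FPKM in petiole and 1.83, 2.01 and 2.48% in leaf. The ranges overlapped, and the difference of 0.123 percentage points was smaller than either SD (0.298 in petiole and 0.331 in leaf), with an exact permutation p of 0.8. Without leaf library 1 the difference was -0.0132 percentage points. A share this small was not resolved between the tissues by 3 libraries each, which does not show that the shares are equal.

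The balance between copies of a subunit was compared within each library, where no scaling between libraries enters. The A03 copy of CESA3 made up 43.3, 43.1 and 43.5% of CESA3 FPKM in petiole and 32.0, 32.5 and 32.7% in leaf. The difference was 10.9 percentage points and the tissues did not overlap. The A03 copy of CESA7 made up 94.3, 92.0 and 90.9% of CESA7 FPKM in petiole and 96.5, 97.0 and 97.2% in leaf, a difference of -4.48 percentage points. For each of these the exact permutation p was 0.1, the smallest possible, and 0.2 after adjustment over the 4 subunits with a pair of copies. The smallest possible p lies above the threshold, so this test could not call either difference. The adjustment also counted CESA8, whose share did not vary. For CESA4 the A06 copy held 97.1% in petiole library 1 and all of it in the other 5 libraries, and for CESA8 the A03 copy held all of it in every library.

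The make-up of the primary wall group was also compared by position in the complex. With 3 libraries against 3, the exact permutation p cannot fall below the threshold, so no share could pass and the ranges are given instead. CESA3 took 45.8 ± 0.099% of primary wall FPKM in petiole and 41.6 ± 0.550% in leaf (SD, n = 3 each), while CESA1 took 19.6 ± 0.230% in petiole and 23.9 ± 0.496% in leaf. Neither range overlapped between the tissues, and each exact permutation p was 0.1, or 0.15 after adjustment over 3 positions. The CESA6-like group of CESA2, CESA5 and CESA6 took 34.6 ± 0.144% in petiole and 34.5 ± 0.769% in leaf, and these overlapped (exact permutation p = 1). Within that group CESA2 held 6.19 ± 0.231% in petiole and 0.562 ± 0.164% in leaf, CESA5 held 36.6 ± 0.414% in petiole and 42.3 ± 1.13% in leaf, and CESA6 held 57.2 ± 0.460% in petiole and 57.1 ± 1.26% in leaf. CESA2 and CESA5 did not overlap between the tissues, with an exact permutation p of 0.1 each, the smallest possible, and 0.15 after adjustment over the 3 subunits. CESA6 overlapped, with an exact permutation p of 0.9. The size of the CESA5 share, and so of the others, rests on the long length that the CESA5 FPKM imply.

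Within the secondary wall group shares were compared by the same test, which could not pass any of them with so few libraries. CESA4 held 36.1, 34.4 and 36.6% in petiole and 31.0, 41.9 and 38.2% in leaf, CESA7 held 26.8 ± 0.968% in petiole and 29.1 ± 3.84% in leaf, and CESA8 held 36.4, 38.4 and 37.7% in petiole and 35.6, 30.4 and 35.6% in leaf. The tissues overlapped for CESA4 and CESA7 and did not overlap for CESA8. The exact permutation p was 0.7 for CESA4, 0.4 for CESA7 and 0.1 for CESA8, the smallest possible, and 0.7, 0.6 and 0.3 after adjustment over the 3 subunits. The SD of these shares was wider in leaf than in petiole for all 3 subunits, 5.55 percentage points in leaf for CESA4.

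**Figure D3:**
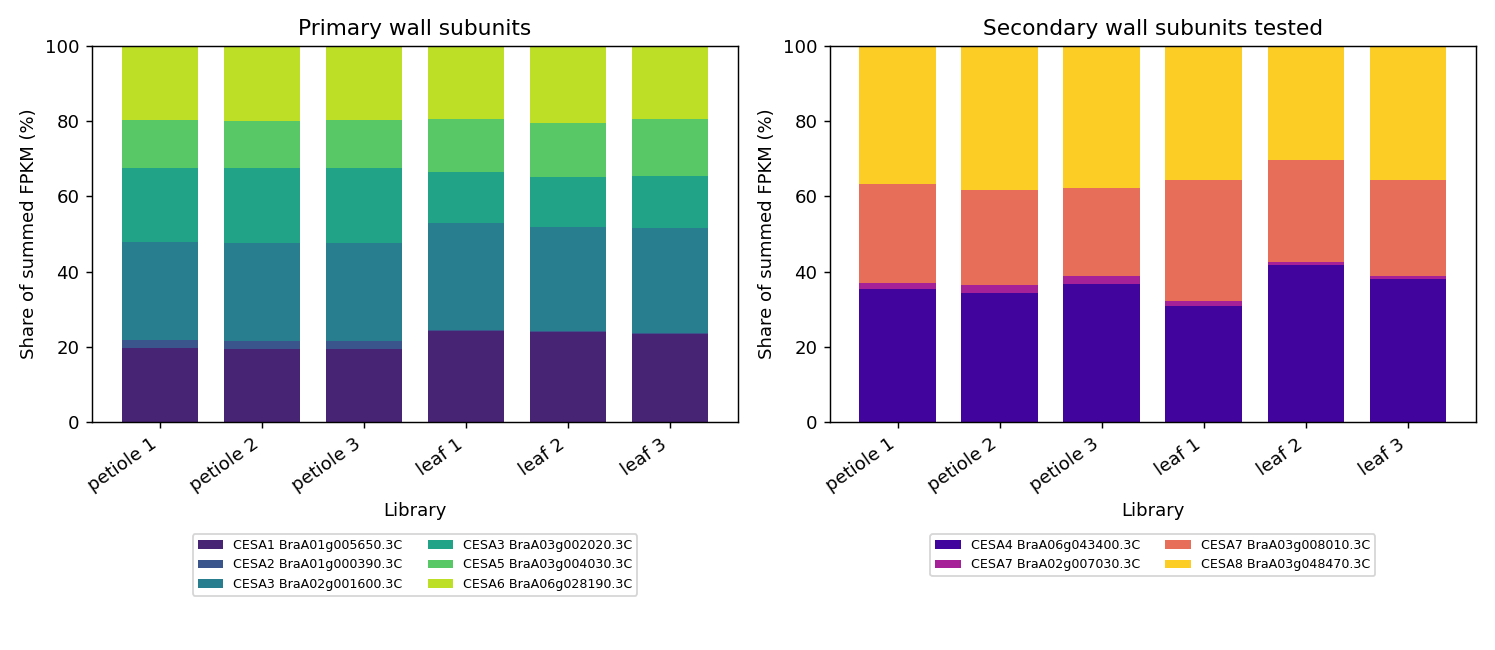
Share of summed FPKM, in percent, taken by each locus in each library, for the primary wall group and for the tested loci of the secondary wall group, with the 3 petiole libraries left of the 3 leaf libraries. The A03 copy of CESA3 takes a wider band and CESA1 a narrower one in petiole than in leaf, and CESA2 is visible in petiole only (18.9 of 883 FPKM there and 0.371 of 190 FPKM in leaf, on average).

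Genes listed as partners of cellulose synthase, among them enzymes that supply UDP-glucose, were mostly higher in petiole too. Of 16 loci matched by their descriptions 14 could be tested, 6 of them sucrose synthases and 3 UDP-glucose pyrophosphorylases. In petiole 12 were higher, 1 was lower and 1 did not pass. Their median log2 fold change was 1.30, against 0.01 over all loci tested. The tested endoglucanase 25, COBRA, chitinase-like protein 1 and KOBITO loci were all higher. Of all loci tested 31.5% were higher and 31.1% lower in petiole. COBRA, a membrane-anchored protein needed for oriented cellulose deposition in *Arabidopsis* (BraA03g043890.3C), averaged 298 ± 8.33 CPM in petiole and 30.4 ± 2.27 CPM in leaf, a log2 difference of 3.30 ± 0.059 (SE). Chitinase-like protein 1, which affects cellulose assembly (BraA10g004600.3C), averaged 1075 ± 20.7 CPM in petiole and 184 ± 7.22 CPM in leaf. Endoglucanase 25, the KORRIGAN enzyme that is a partner of the complex (BraA10g008250.3C), averaged 317 ± 5.77 CPM in petiole and 131 ± 2.59 CPM in leaf. Its log2 fold change of 1.28 ± 0.037 (SE) was in the range of the CESA1, CESA3, CESA5 and CESA6 loci (1.19 to 2.04). KOBITO 1, a glycosyltransferase-like protein needed for normal cellulose synthesis (BraA01g041120.3C), averaged 30.7 ± 1.07 CPM in petiole and 15.9 ± 1.10 CPM in leaf.

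Most enzymes that supply UDP-glucose were higher in petiole. Sucrose synthase splits sucrose into UDP-glucose and fructose, and 5 of its 6 tested loci were higher in petiole. Over all loci tested 31.5% were higher and 31.1% lower in petiole. Sucrose synthase 1 (BraA10g019840.3C) averaged 555 ± 37.1 CPM in petiole and 38.8 ± 2.42 CPM in leaf, a log2 difference of 3.84 ± 0.066 (SE). Another locus described as sucrose synthase 1-like (BraA03g009830.3C) averaged 104 ± 9.99 CPM in petiole and 5.90 ± 1.42 CPM in leaf, a log2 difference of 4.14 ± 0.19 (SE). UDP-glucose pyrophosphorylase makes UDP-glucose from glucose 1-phosphate, and 2 of its 3 tested loci were higher in petiole and 1 was lower. The locus described as probable form 2 (BraA05g041780.3C), added after its values were seen, averaged 252 ± 11.8 CPM in petiole and 103 ± 1.91 CPM in leaf. Form 1 (BraA03g007910.3C) averaged 74.6 ± 2.52 CPM in petiole and 26.0 ± 1.98 CPM in leaf, while form 3, the chloroplast enzyme (BraA09g046780.3C), averaged 21.5 ± 1.40 CPM in petiole and 80.8 ± 3.70 CPM in leaf. Form 3 was the partner locus that was lower in petiole, at a log2 difference of -1.91 ± 0.066 (SE), and it overlaps a locus on the other strand. The partners named here as different had an edgeR adjusted p of at most 5.17e-06.

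Other genes listed for the secondary wall were higher in petiole at most tested loci of the enzyme and structural classes. For the most part this did not hold among the transcription factors. Of 51 loci matched, 41 were tested: 23 were higher in petiole, 1 was lower and 17 did not pass. Over all loci tested 31.5% were higher and 31.1% lower in petiole. The median log2 fold change was 1.02, or 0.88 with 1 COBRA-like 4 locus that had no leaf counts set at its bound. In the classes of xylan synthesis, laccase, xylem proteinase, fasciclin-like arabinogalactan protein and COBRA-like 4, 22 of 28 tested loci were higher and none lower. Among MYB and NAC regulators 1 of 13 was higher and 1 was lower, with a median of 0.23. With limma on log2(FPKM + 1), 24 of the 51 loci passed the filter and all 24 were higher in petiole. Of all loci in that fit 65.7% were higher in petiole. The whole list summed to 359.7 to 383 CPM in petiole and 222 to 224 CPM in leaf. Most of this was the xylan class, with 251 to 266 CPM in petiole and 177 to 182 CPM in leaf. Within it an IRX10L locus (BraA06g025340.3C) alone averaged 79.8 CPM in petiole and 65.5 CPM in leaf, a log2 fold change of 0.29.

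Laccase-4, an enzyme of lignin polymerisation (BraA05g007550.3C), averaged 21.8 ± 3.42 CPM in petiole and 5.39 ± 0.382 CPM in leaf, a log2 difference of 2.01 ± 0.13 (SE). A laccase-17-like locus (BraA02g010500.3C) averaged 31.6 ± 4.09 CPM in petiole and 8.17 ± 1.09 CPM in leaf. An IRX15-LIKE-like locus of xylan synthesis (BraA03g042770.3C) averaged 9.48 ± 1.02 CPM in petiole and 1.52 ± 0.0243 CPM in leaf, and a glucuronoxylan methyltransferase 3-like locus (BraA09g031470.3C) had 5.91, 7.31 and 4.77 CPM in petiole and 1.67, 2.71 and 2.78 CPM in leaf. Both were named for the size of their change. The xylan class as a whole summed to 251 to 266 CPM in petiole and 177 to 182 CPM in leaf, a 1.44-fold difference. Fasciclin-like arabinogalactan protein 11 (BraA03g000880.3C) averaged 7.51 ± 0.412 CPM in petiole and 1.85 ± 0.202 CPM in leaf. COBRA-like protein 4, which acts in secondary wall cellulose in *Arabidopsis* (BraA02g006110.3C), averaged 4.08 ± 0.397 CPM in petiole and 0.890 ± 0.230 CPM in leaf. Xylem cysteine proteinase 2-like, an enzyme of dying vessel cells (BraA07g015520.3C), averaged 8.29 ± 1.04 CPM in petiole and 5.30 ± 0.701 CPM in leaf, a log2 fold change of 0.64 ± 0.15 (SE). These loci passed edgeR's test with an adjusted p of at most 0.00389.

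MYB46 and NAC factors switch on secondary wall genes in *Arabidopsis*, and 11 of the 13 regulators tested here did not pass edgeR's test. A MYB46-like factor (BraA03g005420.3C) averaged 1.74 ± 0.245 CPM in petiole and 1.88 ± 0.0942 CPM in leaf (edgeR adjusted p = 0.709). The factor NAC105 (BraA07g017620.3C) averaged 2.13 ± 0.320 CPM in petiole and 2.06 ± 0.189 CPM in leaf (edgeR adjusted p = 0.876). Both ranges overlapped, and a miss at these low levels does not show that the tissues were alike. On the FPKM scale, where the median of all loci was 0.59, NAC105 passed limma's test with a log2 fold change of 0.50 (adjusted p = 0.00314). The regulators that passed were chosen for mention after their values were seen: a NAC101-like locus (BraA02g043640.3C) with a log2 fold change of 2.64 (edgeR adjusted p = 0.00848), and a NAC76-like locus (BraA03g059890.3C) with one of -1.35 (edgeR adjusted p = 0.0348). The call of a lower locus was lost without petiole library 1 or 2, without any 1 of the leaf libraries, with the replicate block and with library totals alone, and no limma setting made it.

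**Figure D4:**
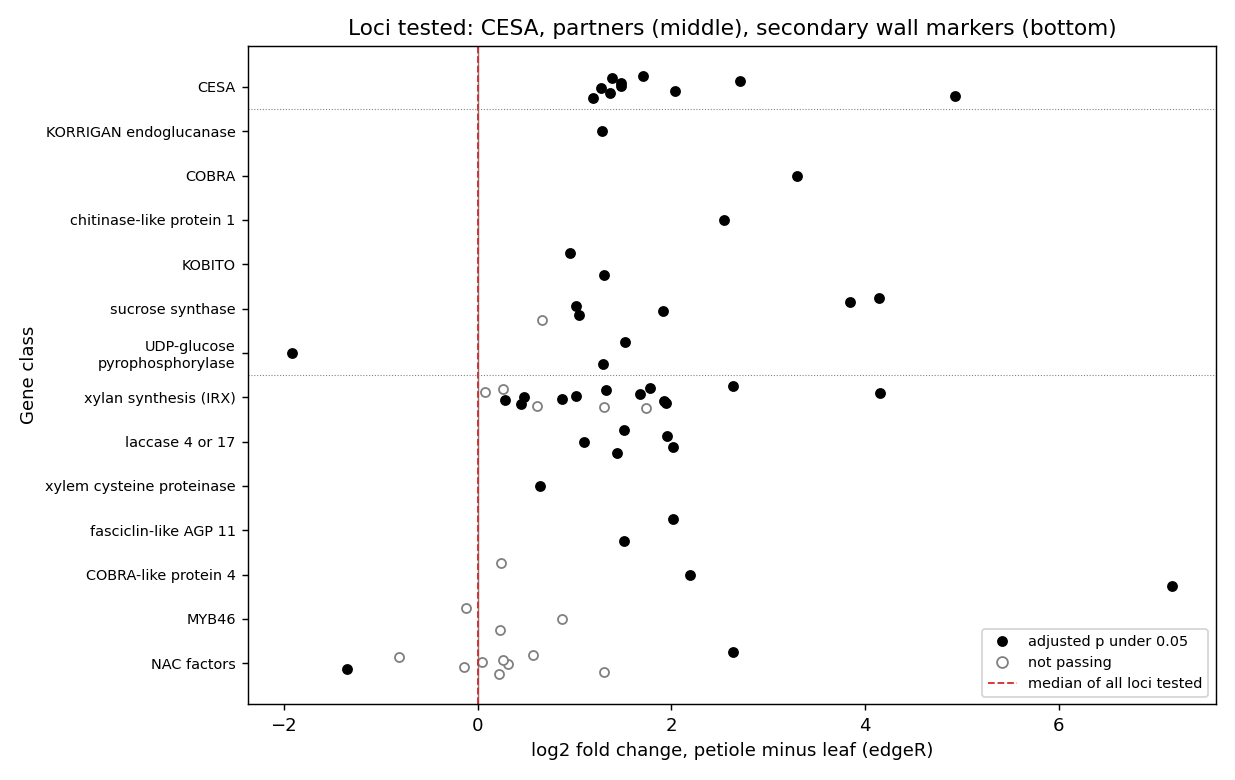
The log2 fold change, petiole minus leaf (edgeR), of each tested locus in the CESA, partner and secondary wall classes, filled where the adjusted p was under 0.05 and open where it was not, with a dashed line at the median over all loci tested (0.01). All 10 CESA points are filled and above 1, most MYB and NAC points are open and near 0, and the COBRA-like 4 point at 7.16 had no counts in leaf, so its fitted value is no measure of size.

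Markers of other cell types were read from the same edgeR fit, in which 31.5% of all loci tested were higher and 31.1% lower in petiole. Loci for B-type cyclins and B-type cyclin-dependent kinases, which mark dividing cells, were higher in petiole at 16 of 20 and lower at none, and summed to 110.3 to 126 CPM in petiole and 45.5 to 55.2 CPM in leaf. Of 22 dividing cell loci matched, 2 were at 0 in all petiole libraries and 3 in all leaf libraries. Phloem markers, SUC2 and sieve element occlusion, were higher at 2 and lower at 3 of 5 loci, and the 2 classes went opposite ways. Both SUC2 loci were lower, and they summed to 57.8 to 64.6 CPM in petiole and 158 to 178 CPM in leaf. Of 3 sieve element occlusion loci 2 were higher and 1 lower. They summed to 83.3 to 88.7 CPM in petiole and 60.8 to 61.7 CPM in leaf. The part of these cell types in the CESA difference was not tested.

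Loci whose pattern over the 6 libraries was nearest to a CESA example were found by Euclidean distance between centred log2(CPM + 0.5) values, among 12834 loci. Nearest to CESA3 on A03 was a merged locus that includes a chitinase-like protein 1 gene (distance 0.0521), which overlaps many other loci. Next came a methionine synthase-type methyltransferase, BraA10g022160.3C (distance 0.0737), with 742 ± 18.5 CPM in petiole and 179 ± 8.33 CPM in leaf. The third was 3-ketoacyl-CoA synthase 4, an enzyme of fatty acid elongation, BraA09g056620.3C (distance 0.0813), with 69.8 ± 1.27 CPM in petiole and 16.2 ± 0.845 CPM in leaf. The nearest other CESA was CESA6, at a distance of 0.681. Nearest to CESA8 on A03 were threonine synthase 2 (BraA02g021250.3C, distance 0.260), a U-box 29-like protein (BraA03g038470.3C, distance 0.292) and a proteasome beta 2-A-like subunit (BraA08g010890.3C, distance 0.298). Its nearest CESA was the A03 copy of CESA7, at a distance of 0.493. With 6 libraries in 2 groups, this likeness covers little beyond the size of the tissue difference.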

How the data were processed

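The members and the gene lists were chosen with earlier results of these data known. RNA of petiole and leaf was extracted with Trizol, depleted of ribosomal RNA and made into strand-specific libraries, per the labels' protocols. Small and circular RNA were not analysed here. The table deposited by the authors gives an estimated count and an FPKM per locus and library, per the file headers. The estimated counts were whole numbers in which a fragment added a median of 3.78 units (3.77 to 3.87), so a floor of 3 fragments was 12 units. Which aligner, counter and plant build were used is not given in the sources used here. Bowtie 0.12.2 and mm8, a mouse build, appear in the submitters' processing notes without a role. By estimate, the deposited FPKM are relative to a denominator larger than the table's own sum. Its size was read from loci with many counts and a high ratio of count to FPKM and span, taken as unspliced. The percentages outside the table and the implied lengths depend on that choice. Loci without a gene name, 2843 in number, held 5.94 to 6.62% of units in petiole and 5.19 to 5.43% in leaf and stayed in the tests.

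The main test was edgeR 4.0.16 in R 4.3.3 (filterByExpr, TMM, robust quasi-likelihood F test, two-sided, tissue alone, Benjamini-Hochberg over all loci tested, threshold 0.05). A run on simulated counts changed few loci, in random directions, so it cannot test the scaling between the tissues. The SE is the size of the log2 fold change over the square root of F. TMM factors were 1.09 to 1.14 in petiole and 0.885 to 0.925 in leaf. Alternatives were DESeq2 1.42.0, limma 3.58.1 on log2(FPKM + 1) or log2(FPKM + 0.1) at a mean FPKM of at least 1 or unfiltered, RLE factors, library totals alone, no filter, counts divided by the units per fragment, a replicate block, and leaving out each library. Lists were matched by description. Merged loci and 7 hits to the stress response protein NST1, another gene, were dropped by name. Searches for cellulose synthase interactive proteins, STELLO, companion of cellulose synthase and SHOU4 matched no description. Named loci were all CESA loci and, per class, up to 2 called loci of largest change whose mean FPKM was 5 or more in the higher tissue, or else the locus with the highest FPKM, plus the 3 loci nearest in pattern to CESA3 on A03 and CESA8 on A03. Shares by position in the complex were added after values were seen. Within a tissue no libraries were duplicates (chi-square per degree of freedom 23.2 to 82.4). No sequences are shown, since no genome or sequence table was used here.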

Additional observations from a re-analysis of the deposited data

How the results depend on the processing

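All 148 alternative values over the 10 tested CESA loci kept their direction and their side of the threshold, with an adjusted p of at most 0.00631. The count of CESA loci called was 10 under every edgeR and DESeq2 setting and 9 of 9 tested with limma at a mean FPKM of at least 1, where CESA7 on A02 falls below the filter; without that filter its log2 fold change was 0.44 and 10 were called. With the replicate number as a block, 10 CESA loci, 13 partners, 22 secondary wall loci and 18683 loci in all were called, against 10, 13, 24 and 19711 without it. Same-numbered libraries did not deviate together (correlations of 0.024, -0.0058 and -0.0041), so the numbers were not taken to pair libraries. Leaving out each library in turn gave 18540 to 18899 loci in all, 10 CESA loci, 13 to 14 partners and 21 to 24 secondary wall loci. It gave differences of -0.0132 to 0.307 percentage points for the secondary wall share, 10.7 to 11.1 for the A03 copy of CESA3 and -5.42 to -3.74 for that of CESA7. The secondary wall share was -0.0132 without leaf replicate 1, against 0.123 with all libraries, 0.102 from estimated counts and 0.0898 over CESA loci at 1 FPKM or more on average. Library totals alone moved the median of all loci to 0.32 and the share of calls higher in petiole to 65.2%, against 50.3% with TMM. The MYB46-like locus BraA03g005420.3C, at -0.11, had 0.19 with library totals alone and 0.24 with limma unfiltered. The NAC105 locus BraA07g017620.3C, at 0.05, had -0.0748 without petiole replicate 2 and 0.141 without petiole replicate 3, the ends of its range, and passed with limma (0.50, 0.74 and 0.50). The causes were not tested. Few counts stood behind the CESA7 copy on A02 and, in leaf, CESA2, and almost none behind the short CESA4 and CESA8 loci. At CESA2 in leaf the coefficient of variation (33.1%) was wider than counting error would give (12.3%).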
